A study of Glycine max with 20 samples.

Results

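Transcript levels of the mid-stage seed coat were compared with those of the mid-stage cotyledon of soybean, over the gene models counted in 2 seed coat libraries (SC100 CT) and 2 cotyledon libraries (C100 CT), which are 4 of the 18 libraries of the series with a file. The models described were the primary ones, that is the first model listed for each gene (identifier suffix 1), that had 10 or more counts summed over the 4 libraries: 31052 of the 55912 primary models in the files. The plants were Glycine max of the cultivar Williams, raised in a greenhouse, and the seeds weighed 100 to 200 mg fresh. Seed coats and cotyledons came from dissected seeds, with several beans pooled in a sample, and total RNA was depleted of ribosomal RNA, fragmented and sequenced as short inserts to serve as the control (CT) for ribosome footprints (FP). The labels call the libraries of a group biological replicates and give nothing further on which plants they came from, so p-values measure the spread between these libraries only.

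The seed coat is maternal tissue that encloses the embryo. Its vascular bundles bring in sucrose and amino acids, which pass from the coat to the embryo across the apoplast, and its outer layers build thick walls, a cuticle and phenolic compounds. The cotyledons are the storage organs of the embryo, and in mid maturation they fill with the 7S and 11S globulins (conglycinins and glycinins), protease inhibitors and oil. The comparison asks which transcripts separate the 2 tissues while the seed fills.

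The libraries held 10599448 and 8897036 counts in SC100 CT and 21644816 and 15301639 in C100 CT. SC100 CT replicate 1 stood apart from the other 3 libraries. It had 46802 of the 88515 models at 0, against 20642 in SC100 CT replicate 2, 22648 in C100 CT replicate 1 and 24822 in C100 CT replicate 2, and it had 5217 models with 1 to 5 counts where SC100 CT replicate 2 had 25103. Among the primary models tested, 8816 were at 0 in SC100 CT replicate 1 and 902 in SC100 CT replicate 2. The Pearson correlation of the log2 counts across models was 0.798 between the SC100 CT replicates and 0.953 between the C100 CT replicates; this correlation is across models, which are not independent replicates. RPKM is used here for a model's count divided by its cDNA length in kilobases and by the library total. The 58 models above 5000 RPKM in any of the 4 libraries took up between 68.2% and 76.3% of the counts of a library.

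**Figure D1:**
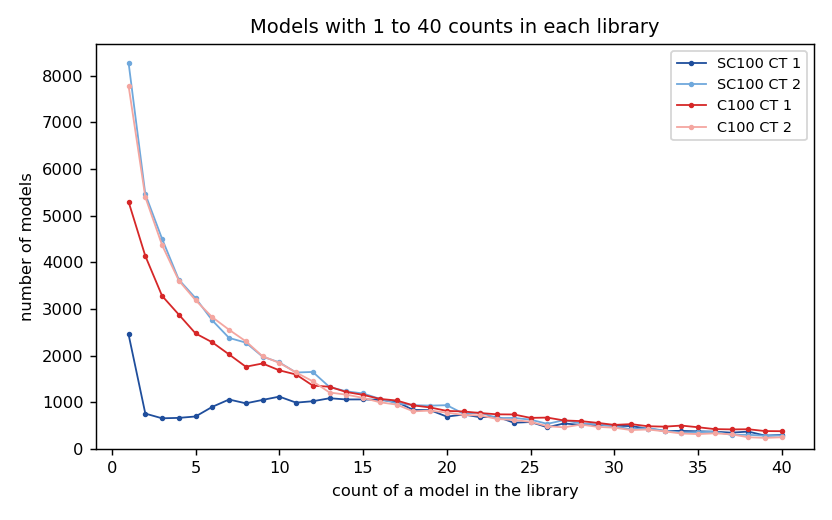
Number of models (vertical axis) with each count from 1 to 40 (horizontal axis) in the 4 libraries, 1 line per library. SC100 CT replicate 1 had 2452 models with 1 count and 755 with 2, where SC100 CT replicate 2 had 8280 and 5461.

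Across all 56976 models tested with edgeR's quasi-likelihood test (TMM normalization, Benjamini-Hochberg adjusted p under 0.05), 2004 (3.52%) were higher in the seed coat and 1511 (2.65%) were lower. Of the 31052 primary models, 1244 (4.01%) were called higher and 945 (3.04%) lower, 7.05% in all, and every share of a gene group given here is to be read against these shares. The median log2 fold change of the called models was 4.26 for those higher and -2.64 for those lower. Of the models called higher, 149 had no count in either cotyledon library, and 27 of those called lower had none in either seed coat library. The RPKMs of the tissues did not overlap in 12597 primary models (40.6%) that were higher in the seed coat and in 5339 (17.2%) that were lower, so separation of 2 libraries from 2 was common.

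The split between directions depended on the scaling. TMM put the median log2 fold change of the primary models at -0.20, and library totals without TMM put it at 0.60, a shift of 0.79. RPKMs follow library totals and fold changes follow TMM, so a model of equal RPKM in both tissues has a log2 fold change below 0. Of all calls, 57.0% were higher in the seed coat with TMM and 85.0% with library totals (6189 higher, 1088 lower). All 2004 models called higher were also called higher on totals, and 879 of the 1511 called lower were also called lower. The calls were sensitive to single libraries. Leaving out C100 CT replicate 1 gave 1092 higher and 733 lower. With SC100 CT replicate 1 left out there were 10265 and 8998, and these included all 2004 and all 1511 of the calls on 4 libraries. With SC100 CT replicate 2 left out there were 12637 and 24528. In each of these fits the tissue with a single library was assumed to vary as the other did. Part of the calls on 4 libraries was lost when either C100 CT replicate was left out. Full overlap with a fit that called many more models is weak support for the calls. Where a gene group is described, its counts with libraries left out in turn follow the order SC100 CT replicate 1, SC100 CT replicate 2, C100 CT replicate 1, C100 CT replicate 2. Of the models named for this comparison 98 were called, and in all 98 the RPKMs of the tissues did not overlap. For those named by the size of their fold change, no overlap was itself a condition of being named.

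**Figure D2:**
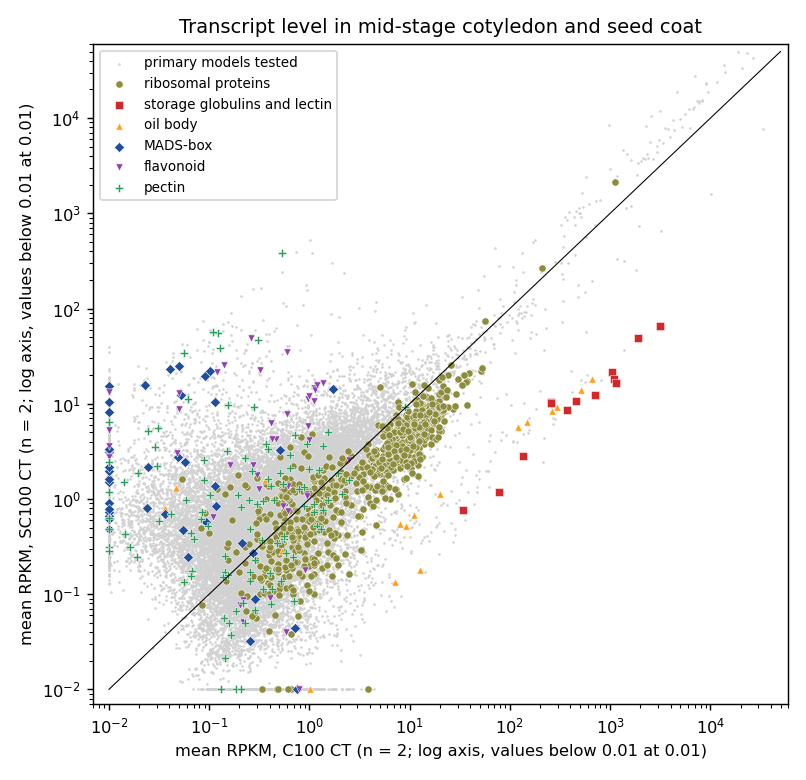
Mean RPKM in SC100 CT (vertical axis) against mean RPKM in C100 CT (horizontal axis), both logarithmic, for the primary models tested, with 6 gene groups in colour and the line of equal level; values below 0.01 are drawn at 0.01. All 14 storage globulin and lectin models lie far below the line, most MADS-box models above it towards the left, and ribosomal protein models mostly just below it.

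The 12 largest log2 fold changes towards the seed coat, among annotated primary models with at least 10 RPKM and tissues that did not overlap, belonged to genes of varied annotation, 10 of which had no count in the cotyledon. Glyma.04G005400.1, annotated as proline-rich protein 2, had 37.7 and 31.7 RPKM in SC100 CT against 0 and 0 in C100 CT, at least 284-fold higher on library totals when 3 counts per library stand for each 0, or at least 153-fold with TMM (adjusted p = 0.00405). For every gene at 0 in both cotyledon libraries such a bound on library totals is given. Glyma.15G248400.1, a gibberellin 2-oxidase, which inactivates gibberellins, had 13.6 and 21.3 RPKM in the seed coat and was at least 147-fold higher (adjusted p = 0.00761). The fasciclin-like arabinogalactan protein Glyma.19G180700.1, a cell surface glycoprotein, had 13.9 and 18.2 RPKM and was at least 109-fold higher. No count of these 3 models was seen in the cotyledon.

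The same held for 7 further models. The MADS-box factors Glyma.19G034500.1 (19.003 and 11.4 RPKM) and Glyma.05G148800.1 (12.4 and 8.55) were at least 141-fold and at least 80.6-fold higher. The alpha/beta-hydrolase Glyma.01G186600.1 had 14.9 and 8.06 RPKM and was at least 123-fold higher. Leucoanthocyanidin dioxygenase (Glyma.01G214200.1), an enzyme of the anthocyanidin branch of flavonoid synthesis, had 20.2 and 6.22 RPKM and was at least 104-fold higher (adjusted p = 0.018). Its seed coat replicates lay further apart than those of the other genes of this set. Glyma.20G167500.1 (ABA/WDS induced protein), Glyma.16G151800.1 (dynein light chain type 1) and Glyma.15G147000.1 (flowering promoting factor 1) were at least 98.3-fold, at least 99.9-fold and at least 58.3-fold higher. A single count in C100 CT replicate 2 was seen for beta-xylosidase 1 (Glyma.15G143700.1), a wall hydrolase with 17.8 and 14.4 RPKM in the seed coat, and for the aspartyl protease Glyma.02G213000.1, with 35.4 and 14.7; the ratios of counts relative to library totals were 1588-fold (95% interval 284 to 62798) and 1598-fold (95% interval 286 to 63172), with intervals for counting error only.

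Towards the cotyledon, 8 of the 12 largest log2 fold changes were of models at 0 in SC100 CT replicate 1, the library that stood apart, and their rank rested on it. Glyma.12G213600.1, of the family of protease inhibitors, storage albumins and lipid transfer proteins, had 1.89 and 3.001 RPKM in SC100 CT against 242 and 183 in C100 CT (log2 fold change -7.26 ± 0.41, adjusted p = 0.00404). The aquaporin-like models Glyma.20G216100.1 and Glyma.10G174400.1 were both at 0 in SC100 CT replicate 1. The first had 0.709 RPKM in SC100 CT replicate 2 against 32.2 and 22.5 in C100 CT (log2 fold change -7.12 ± 0.89), and the second 2.25 against 88.9 and 62.6 (-6.88 ± 1.25). The urease Glyma.08G103000.1, which splits urea into ammonia and carbon dioxide, had 0 and 0.349 RPKM in SC100 CT against 13.8 and 10.7 in C100 CT (log2 fold change -7.00 ± 0.85, adjusted p = 0.0128). The pattern of 0 in SC100 CT replicate 1 and a low value in replicate 2 recurred in the lipid transfer type Glyma.13G160400.1 (-7.08 ± 0.85), the Kunitz trypsin inhibitor Glyma.08G342300.1 (-6.93 ± 0.89), the LEA-type Glyma.17G027400.1 (-6.75 ± 0.86), the oleosin Glyma.17G122000.1 and the conserved hypothetical protein Glyma.04G136500.1. For the last 2, with 3 and 1 counts in the seed coat, the ratios towards the cotyledon were 77.4-fold (95% interval 26.3 to 377) and 92.9-fold (95% interval 16.5 to 3689). Without SC100 CT replicate 1 the log2 fold changes of Glyma.20G216100.1, Glyma.10G174400.1 and the urease Glyma.08G103000.1 were -5.94, -5.76 and -5.81, smaller in size than those of the glycinins Glyma.13G123500.1 (-6.69) and Glyma.10G037100.1 (-6.61) in the same fit. The remaining 3 of the 12, Glyma.13G123500.1, Glyma.10G037100.1 and Glyma.10G246500.1, are storage globulins.

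**Figure D3:**
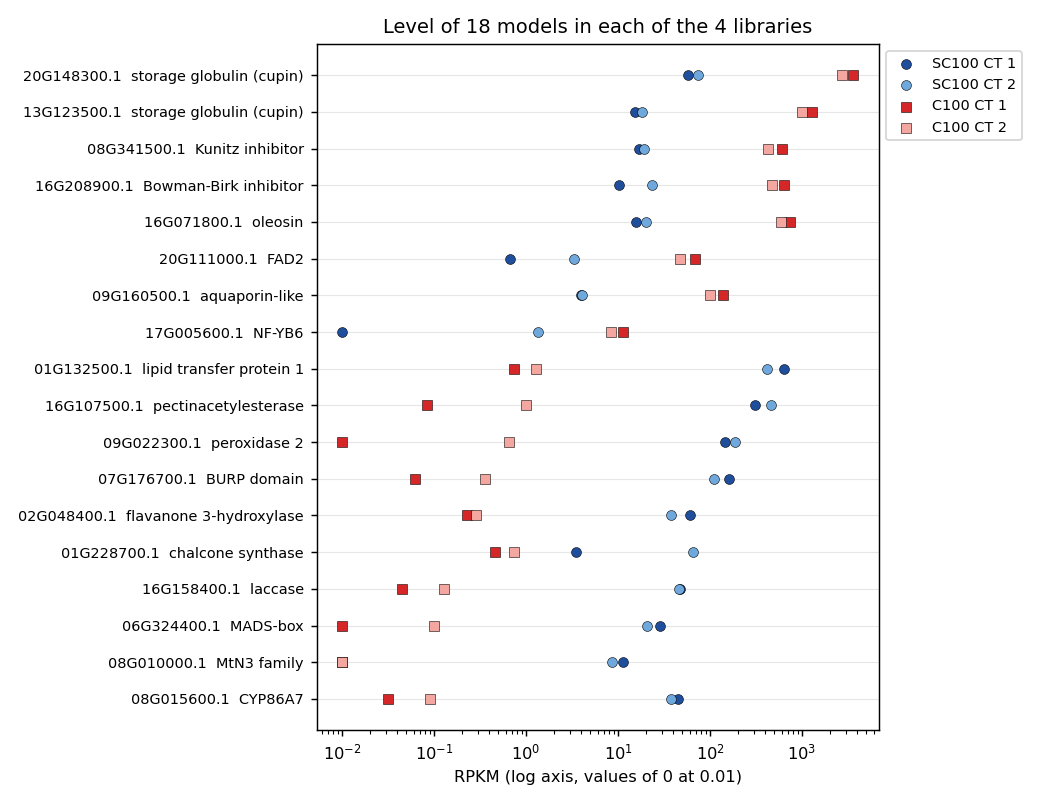
RPKM (logarithmic axis, values of 0 drawn at 0.01) of 18 models in each of the 4 libraries, circles for SC100 CT and squares for C100 CT. The tissues do not overlap in any of the 18, and the chalcone synthase Glyma.01G228700.1 has the widest gap between the seed coat replicates among models above 0 in both (3.47 and 65.9 RPKM).

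Storage proteins are the main reserve of the soybean embryo. All 14 storage globulin and lectin models were lower in the seed coat (14 of 14 called, against 3.04% of the primary models), with a median log2 fold change of -6.40 and a range from -6.91 to -5.42. These models were taken from the study's own table of seed proteins, which was made on cotyledon libraries of this series, so their high level in the cotyledon is not independent evidence. Glyma.20G148300.1, a conglycinin, had 56.9 and 74.3 RPKM in SC100 CT against 3611 and 2736 in C100 CT (log2 fold change -6.40 ± 0.46, adjusted p = 0.00438). Glyma.20G148400.1, a conglycinin too, gave RPKMs within 5% of these in all 4 libraries. A read that matches several models was counted at each, so the 2 models cannot be told apart. The conglycinin Glyma.10G246300.1 had 42.96 and 55.1 RPKM in SC100 CT against 2131 and 1661 in C100 CT (log2 fold change -6.09 ± 0.43, adjusted p = 0.00432). The glycinin Glyma.13G123500.1 had 15.2 and 18.005 RPKM in SC100 CT against 1285 and 991 in C100 CT (log2 fold change -6.91 ± 0.39, adjusted p = 0.00404), and the seed lectin Glyma.02G012600.1, singled out after its values were seen, had 9.996 and 11.3 against 533 and 376. Summed over the 14 models, the level was 252 and 336 RPKM in the seed coat and 15588 and 11994 in the cotyledon. Of the 14 models, 4 had another called member of the list within 5% in every library. Reads shared between such models entered the sum more than once, and the 14 calls are not those of 14 independent genes.

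The seed coat libraries were not free of these transcripts. As a percentage of the mean cotyledon RPKM, the 14 models had a median of 1.79% (range 0.135% to 2.43%) in SC100 CT replicate 1 and 2.43% (1.58% to 5.76%) in replicate 2. The 12 oil body models called lower had medians of 2.40% and 3.87%, and the 19 protease inhibitors called lower 3.26% and 4.19%. Whether these reads came from the seed coat itself or from cotyledon RNA was not tested. In the opposite direction, models called higher were set against the mean seed coat RPKM in C100 CT replicates 1 and 2. The medians were 0 and 0.145% for the 14 MADS-box models and 0 and 0.549% for the 10 flavonoid models. For the 3 BURP models they were 0.0462% and 0.262%, and for the 10 peroxidases 2.55% and 2.08%. The percentages in both directions cover only models already called, so low values were in part set by the call. In bulk tissue, fewer cells of a type and less RNA per cell cannot be told apart.

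Protease inhibitors of the Kunitz and Bowman-Birk families, which are reserve and defence proteins of the embryo, were mostly lower in the seed coat among the members called. Of 71 models in the files, 32 were tested, 19 were lower and 3 higher in the seed coat (median log2 fold change -5.32). With libraries left out in turn, 24, 25, 20 and 19 were lower and 4, 6, 3 and 3 higher. The Bowman-Birk inhibitor Glyma.16G208900.1 had 10.2 and 23.4 RPKM in SC100 CT against 644 and 477 in C100 CT (log2 fold change -5.84 ± 0.58, adjusted p = 0.00761). Glyma.09G158900.1, of the same family, had 3.06 and 15.3 RPKM in SC100 CT against 453 and 350.3 in C100 CT (log2 fold change -6.25 ± 0.82, adjusted p = 0.0154). The Kunitz trypsin inhibitors Glyma.08G341500.1 (-5.66 ± 0.36) and Glyma.01G095000.1 (-6.12 ± 0.32) were also lower, the first with 16.8 and 19.002 RPKM in SC100 CT against 604 and 425 in C100 CT and the second with 11.1 and 11.1 RPKM in SC100 CT against 509.6 and 366 in C100 CT.

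Oil body and lipid synthesis models that passed the test were lower in the seed coat, with 1 exception. Of 20 oil body models tested, 12 were lower and 1 was higher (median -4.98). With libraries left out in turn, 13, 14, 12 and 12 were lower and 3, 5, 0 and 1 higher. The oleosins, which coat oil bodies, were led by Glyma.16G071800.1, with 15.6 and 20.3 RPKM in SC100 CT against 732 and 589.6 in C100 CT (log2 fold change -6.02 ± 0.38, adjusted p = 0.00405). Glyma.04G077600.1, Glyma.19G063400.1 and Glyma.06G078700.1 had log2 fold changes of -5.99 ± 0.53, -5.77 ± 0.45 and -5.76 ± 0.42. Of 68 models of fatty acid and triacylglycerol synthesis, 13 were lower and 0 higher (median -1.94). With libraries left out in turn, the count lower was 40, 46, 7 and 22 and the count higher 9, 6, 0 and 1.

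The 3 most abundant members of the lipid synthesis list were desaturases. The fatty acid desaturase 2 models Glyma.20G111000.1 and Glyma.10G278000.1, which introduce the second double bond of linoleic acid, were both lower in SC100 CT replicate 1 than in replicate 2. Glyma.20G111000.1 had 0.669 and 3.28 RPKM in SC100 CT against 68.3 and 47.6 in C100 CT (log2 fold change -5.65 ± 0.83, adjusted p = 0.0204), and Glyma.10G278000.1 0.417 and 1.93 RPKM in SC100 CT against 54.2 and 39.3 in C100 CT (log2 fold change -6.12 ± 0.75, adjusted p = 0.0131). The stearoyl-ACP desaturase Glyma.14G121400.1, which makes the first double bond, had 1.94 and 2.13 RPKM in SC100 CT against 38.9 and 34.7 in C100 CT (log2 fold change -5.01 ± 0.29, adjusted p = 0.00404). The acetyl-CoA carboxylase beta subunit model Glyma.15G248500.1 had 16.3 and 12.7 RPKM in SC100 CT against 12.97 and 9.43 in C100 CT and was not called (adjusted p = 0.429).

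Late embryogenesis abundant (LEA) and dehydrin transcripts, whose proteins protect cells during drying, were split. Of 60 tested, 12 were lower and 8 higher in the seed coat (median -1.69), and with libraries left out in turn the counts were 28, 34, 6 and 11 lower and 16, 17, 4 and 6 higher. Glyma.13G363300.1 had 16.3 and 9.25 RPKM in SC100 CT against 106 and 74.97 in C100 CT (log2 fold change -3.66 ± 0.31, adjusted p = 0.00551), and the dehydrin Glyma.04G009900.1 had 5.37 and 4.06 RPKM in SC100 CT against 31.97 and 24.8 in C100 CT (log2 fold change -3.42 ± 0.25, adjusted p = 0.00438). Glyma.04G009400.1 (cold-regulated 47), a dehydrin too, went the other way with 29.6 and 32.6 RPKM in SC100 CT against 7.01 and 4.99 in C100 CT (log2 fold change 1.56 ± 0.25, adjusted p = 0.0259); its adjusted p was 0.144 without C100 CT replicate 1 and 0.0741 without C100 CT replicate 2.

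Among 29 tested models of B3-domain and LEC1-type regulators of seed maturation, 3 were lower and 5 higher. With libraries left out in turn, 11, 13, 3 and 3 were lower and 8, 9, 2 and 5 higher. The AP2/B3-like factors Glyma.08G357600.1 and Glyma.18G176100.1 were higher in the cotyledon, the first with 0.0577 and 0.927 RPKM in SC100 CT against 10.8 and 9.36 in C100 CT (log2 fold change -5.18 ± 0.98, adjusted p = 0.0406) and the second with 0.923 and 0.534 RPKM in SC100 CT against 7.57 and 6.28 in C100 CT (log2 fold change -4.09 ± 0.31, adjusted p = 0.00465). Glyma.17G005600.1, annotated as nuclear factor Y subunit B6, had 0 and 1.36 RPKM in SC100 CT against 11.4 and 8.39 in C100 CT. It missed the threshold (log2 fold change -4.71 ± 1.01, adjusted p = 0.058). A fit without SC100 CT replicate 1, in which this model was at 0, leaves a single seed coat library and does not decide on it. The AP2/B3 factor Glyma.01G087500.1 was higher in the seed coat, with 8.33 and 4.93 RPKM in SC100 CT against 0 and 0.0358 in C100 CT, a ratio of counts relative to library totals of 457-fold (95% interval 81.2 to 18113).

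**Figure D4:**
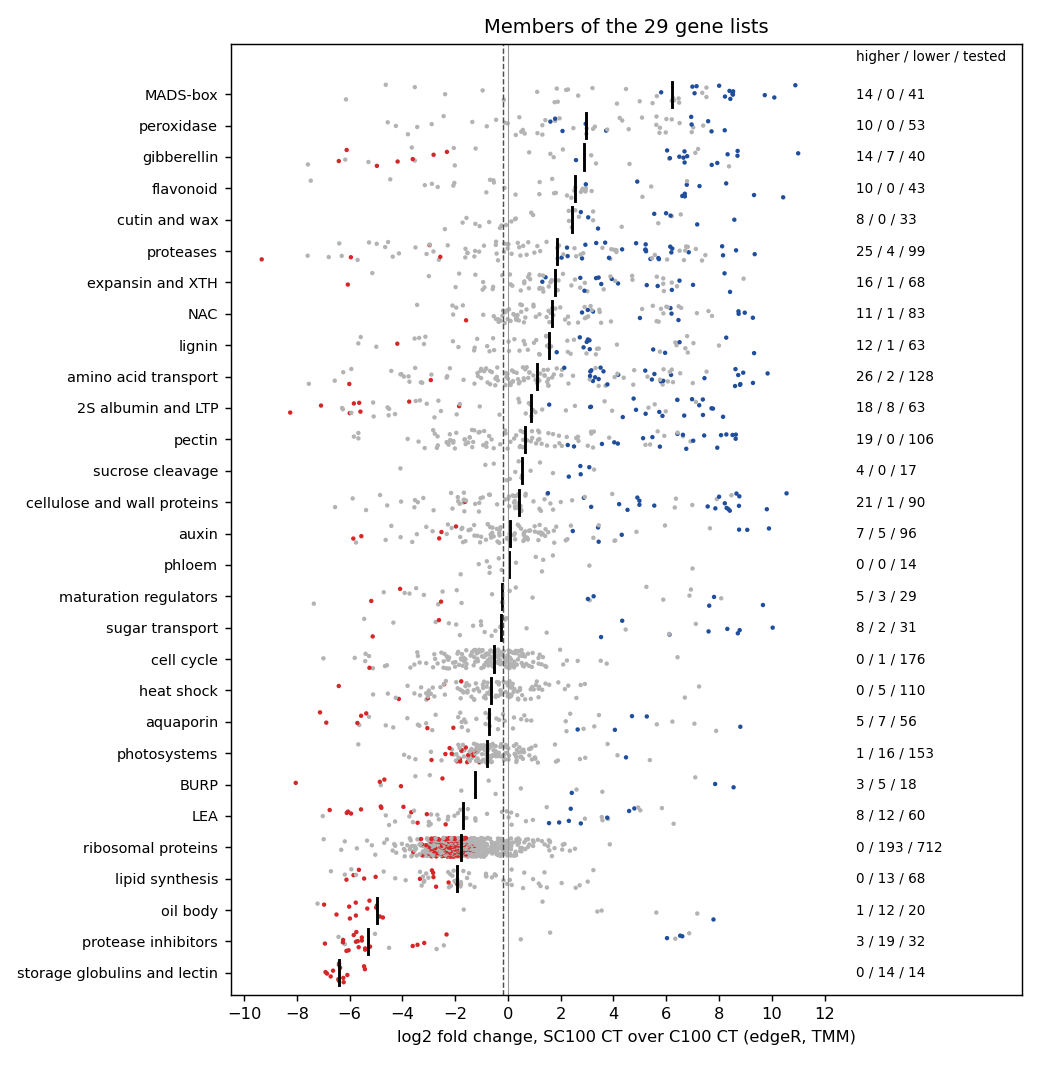
Log2 fold change of SC100 CT over C100 CT (horizontal axis) for the tested members of 29 gene lists, 1 point per model, blue where called higher, red where called lower and grey otherwise, with the list median as a black bar and the median of all primary models (-0.20) as a dashed line. The counts at the right give the members called higher, called lower and tested, from 14, 0 and 41 for MADS-box factors at the top to 0, 14 and 14 for storage globulins and lectin at the bottom.

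Flavonoid enzymes gave calls in the seed coat direction. Of 43 flavonoid enzyme models tested, 10 were higher and 0 lower (median 2.55), and with libraries left out in turn 27, 19, 8 and 24 were higher and 6, 10, 0 and 0 lower. The flavanone 3-hydroxylases Glyma.02G048400.1 and Glyma.02G048600.1, which lead from flavanones to dihydroflavonols, had 59.9 and 37.7 RPKM in SC100 CT against 0.229 and 0.288 in C100 CT (log2 fold change 6.71 ± 0.39, adjusted p = 0.00404) and 31.3 and 19.7 RPKM in SC100 CT against 0.153 and 0.1298 in C100 CT (log2 fold change 6.61 ± 0.37, adjusted p = 0.00404). The chalcone synthase models, of the enzyme that opens the pathway, behaved differently. Glyma.01G228700.1 had 3.47 and 65.9 RPKM in SC100 CT against 0.463 and 0.743 in C100 CT and Glyma.11G011500.1 3.09 and 42.4 RPKM in SC100 CT against 0.186 and 0.451 in C100 CT. In both, the 2 seed coat replicates lay more than 10-fold apart, although each exceeded both cotyledon libraries, and neither was called (adjusted p = 0.132 and 0.108). Both were called without SC100 CT replicate 1, but that fit left a single seed coat library and so dropped this gap. The footprint libraries showed a gap of the same direction, with 1.49 and 36.7 RPKM for Glyma.01G228700.1 in SC100 FP replicates 1 and 2.

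Lignin-related models, including laccases, which polymerize lignin precursors, numbered 12 higher and 1 lower of 63 tested (median 1.55; with libraries left out in turn 33, 30, 3 and 9 higher and 8, 17, 1 and 2 lower). The laccase Glyma.16G158400.1 had 46.9 and 45.7 RPKM in SC100 CT against 0.0453 and 0.128 in C100 CT (log2 fold change 8.27 ± 0.51, adjusted p = 0.00405), and the dirigent-like Glyma.12G097400.1 had 39.4 and 33.5 RPKM in SC100 CT against 0.103 and 0.364 in C100 CT (log2 fold change 6.51 ± 0.56, adjusted p = 0.00564). Laccase 1 (Glyma.02G076300.1) had 14.98 and 10.2 RPKM in the seed coat and no count in the cotyledon, at least 47.3-fold higher (adjusted p = 0.00985). The laccase Glyma.02G076400.1 had 8.61 and 8.51 RPKM in SC100 CT against 0 and 0.146 in C100 CT, a ratio of 142-fold (95% interval 24.7 to 5688), and lost its call without C100 CT replicate 1 (adjusted p = 0.122).

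Class III peroxidases, secreted enzymes of the wall, gave 10 higher and 0 lower of 53 tested (median 2.95, or 1.505 with models at 0 in a tissue set to their bound). Over the fits with 1 library fewer, 30, 24, 5 and 8 were higher and 4, 9, 0 and 0 lower. Peroxidase 2 (Glyma.09G022300.1) had 146 and 185 RPKM in SC100 CT against 0 and 0.659 in C100 CT (log2 fold change 8.22 ± 1.25, adjusted p = 0.0222). Glyma.17G013600.1 had 431 and 431 RPKM in SC100 CT against 77.6 and 62.7 in C100 CT (log2 fold change 1.79 ± 0.26, adjusted p = 0.0197), a call that was lost without C100 CT replicate 1 (adjusted p = 0.148). The most abundant member, Glyma.13G167100.1, had 4909 and 7713 RPKM in SC100 CT against 4319 and 3549.8 in C100 CT and was not called (adjusted p = 0.902), nor was Glyma.07G260300.1 (287 and 258 against 119.9 and 95.5, adjusted p = 0.315).

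Members of the cell wall lists that passed the test were mostly higher in the seed coat. Of 106 models of pectin enzymes tested, 19 were higher and 0 lower, with a median of 0.65 against -0.20 for all primary models. In the fits with a library left out, the counts were 35, 47, 14 and 18 higher and 18, 36, 0 and 0 lower. Of 68 expansins and xyloglucan endotransglucosylases, which loosen or remodel walls, 16 were higher and 1 lower (median 1.78; left out in turn, 39, 40, 11 and 17 higher and 2, 12, 0 and 1 lower). Of 90 cellulose synthases, COBRA and fasciclin-like proteins, 21 were higher and 1 lower (median 0.40; left out in turn, 35, 39, 15 and 21 higher and 23, 26, 1 and 3 lower).

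Pectin acetylesterases, which take acetyl groups off pectin, were the 3 most abundant members of the pectin list. Glyma.16G107500.1 had 307 and 460.3 RPKM in SC100 CT against 0.0841 and 0.991 in C100 CT (log2 fold change 8.64 ± 1.21, adjusted p = 0.0178), Glyma.16G107600.1 47.1 and 65.2 RPKM in SC100 CT against 0.0201 and 0.199 in C100 CT (log2 fold change 8.28 ± 0.86, adjusted p = 0.00859) and Glyma.16G075700.1 39.2 and 70.4 RPKM in SC100 CT against 0.03699 and 0.209 in C100 CT (log2 fold change 8.08 ± 0.79, adjusted p = 0.00734). In all 3 the seed coat exceeded the cotyledon by more than 100-fold in every pair of libraries. The pectin methylesterase inhibitor type Glyma.17G044500.1 had 50.2 and 42.7 RPKM in SC100 CT against 0.135 and 0.476 in C100 CT (log2 fold change 6.42 ± 0.66, adjusted p = 0.00841). The fasciclin-like Glyma.14G005300.1 and Glyma.02G307700.1 were also higher, the first with 90.01 and 85.2 RPKM in SC100 CT against 1.61 and 1.65 in C100 CT (4.91 ± 0.29) and the second with 79.9 and 82.4 RPKM in SC100 CT against 2.29 and 1.67 in C100 CT (4.53 ± 0.27). Xyloglucan endotransglycosylase 6 (Glyma.13G103100.1) had 26.2 and 41.3 RPKM in SC100 CT against 0.075001 and 0.371 in C100 CT (log2 fold change 6.50 ± 0.74, adjusted p = 0.011), and expansin A2 (Glyma.03G035800.1) 38.8 and 14.6 RPKM in SC100 CT against 0.0518 and 0.366 in C100 CT (log2 fold change 6.21 ± 0.85, adjusted p = 0.0167).

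Smaller differences in the same groups were less firm. Glyma.19G201600.1, a fasciclin-like protein, had 23.4 and 23.2 RPKM in SC100 CT against 6.01 and 3.35 in C100 CT (log2 fold change 1.51 ± 0.27, adjusted p = 0.0341), with an adjusted p of 0.0988 without C100 CT replicate 1 and 0.145 without C100 CT replicate 2. Glyma.17G065300.1, a xyloglucan endotransglycosylase, had 20.6 and 16.1 RPKM in SC100 CT against 4.52 and 3.15 in C100 CT (log2 fold change 1.43 ± 0.24, adjusted p = 0.0298), with 0.205 and 0.147 without the same libraries and 0.0824 with DESeq2. The expansin-like Glyma.11G096700.1 (25.1 and 21.7 against 14.6 and 10.1 RPKM, adjusted p = 0.848) and the COBRA-like Glyma.17G030700.1 (16.3 and 13.7 against 9.41 and 5.62, adjusted p = 0.723) were not called.

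Cutin, wax and suberin enzymes, which make the hydrophobic layers of surfaces, gave 8 higher and 0 lower of 33 tested (median 2.42; with libraries left out in turn 18, 17, 4 and 8 higher and 5, 6, 0 and 0 lower). CYP86A7 (Glyma.08G015600.1), of a P450 family that hydroxylates the end of fatty acids, had 44.8 and 37.5 RPKM in SC100 CT against 0.0316 and 0.0895 in C100 CT, a ratio of 746-fold (95% interval 255 to 3623). CYP86A8 (Glyma.05G208900.1) had 8.71 and 11.9 RPKM in SC100 CT against 0 and 0.0893 in C100 CT (log2 fold change 7.17 ± 0.90, adjusted p = 0.0136). The fatty acid hydroxylase Glyma.17G069100.1 had 9.68 and 6.902 RPKM in SC100 CT against 0.0881 and 0.0498 in C100 CT (log2 fold change 5.99 ± 0.37, adjusted p = 0.00405), and Glyma.13G091200.1 6.19 and 3.08 RPKM in SC100 CT against 0.0384 and 0.0271 in C100 CT, a ratio of 141-fold (95% interval 47.8 to 691).

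The family of 2S albumins and lipid transfer proteins held members of both tissues: 18 were higher and 8 lower of 63 tested (left out in turn, 27, 30, 14 and 18 higher and 20, 27, 4 and 9 lower). Lipid transfer protein 1 (Glyma.01G132500.1), a small secreted lipid binder, reached 630.4 and 418 RPKM in SC100 CT against 0.732 and 1.29 in C100 CT (log2 fold change 8.15 ± 0.52, adjusted p = 0.00405). Glyma.02G281400.1 had 246 and 221 RPKM in SC100 CT against 1.58 and 2.87 in C100 CT (log2 fold change 5.86 ± 0.47, adjusted p = 0.00529), and Glyma.02G281500.1 119 and 92.6 RPKM in SC100 CT against 0.2599 and 0.919 in C100 CT (log2 fold change 6.68 ± 0.62, adjusted p = 0.00664). Glyma.19G002300.1 had 95.5 and 56.4 RPKM in SC100 CT against 0.0945 and 0.601 in C100 CT (log2 fold change 6.98 ± 0.77, adjusted p = 0.0103). BURP domain proteins were divided too, with 3 higher and 5 lower of 18 (left out in turn, 4, 6, 1 and 3 higher and 7, 11, 4 and 4 lower). Glyma.07G176700.1 had 161 and 109.6 RPKM in SC100 CT against 0.0625 and 0.353 in C100 CT (log2 fold change 8.55 ± 0.76, adjusted p = 0.00625), while Glyma.12G217400.1 had 9.58 and 17.6 RPKM in SC100 CT against 230.1 and 173 in C100 CT (log2 fold change -4.68 ± 0.46, adjusted p = 0.00734) and Glyma.13G283900.1 3.47 and 3.42 RPKM in SC100 CT against 10.97 and 10.5 in C100 CT (log2 fold change -2.48 ± 0.28, adjusted p = 0.0103). Glyma.12G217300.1 had 46.2 and 50.5 RPKM in SC100 CT against 50.8 and 39.9 in C100 CT and was not called (adjusted p = 0.172). BURP proteins were among the marker lists chosen for the seed coat, but their calls went in both directions; the flavonoid and peroxidase lists, chosen as seed coat markers too, had no member called lower.

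Transporters for the nutrients that pass from coat to embryo gave calls in both directions. Of 31 SWEET-type and sucrose symporter models tested, 8 were higher and 2 lower in the seed coat (left out in turn, 11, 9, 7 and 8 higher and 6, 13, 2 and 2 lower). The MtN3 family models Glyma.08G010000.1 and Glyma.05G202700.1, of the SWEET type that lets sugars out of cells, were both higher. The first had 11.3 and 8.61 RPKM in SC100 CT against 0 and 0 in C100 CT and was at least 76.9-fold higher, and the second had 10.2 and 8.17 RPKM in SC100 CT against 0 and 0.0511 in C100 CT, a ratio of 439.6-fold (95% interval 78.1 to 17439). The sucrose-proton symporters, which take sucrose up, went in opposite directions. Glyma.02G075100.1 had 0.0434 and 1.09 RPKM in SC100 CT against 12.2 and 9.95 in C100 CT (log2 fold change -5.13 ± 0.98, adjusted p = 0.0423), and Glyma.16G156800.1, with the same annotation, had 9.71 and 3.82 RPKM in SC100 CT against 0.193 and 0.171 in C100 CT (log2 fold change 4.33 ± 0.54, adjusted p = 0.0136).

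Sucrose synthases and invertases, which split sucrose, gave 4 higher and 0 lower of 17 sucrose-cleaving models tested (left out in turn, 6, 8, 3 and 4 higher and 2, 4, 0 and 1 lower). The calls were for a pair of neutral invertases and a pair of sucrose synthases. Of 4 models annotated as sucrose synthase 4, Glyma.15G182600.1 had 29.2 and 33.996 RPKM in SC100 CT against 2.22 and 1.98 in C100 CT (log2 fold change 3.08 ± 0.28, adjusted p = 0.00639) and Glyma.09G073600.1 21.7 and 23.1 RPKM in SC100 CT against 2.12 and 1.63 in C100 CT (log2 fold change 2.76 ± 0.25, adjusted p = 0.00637). Glyma.13G114000.1 (43.7 and 38.5 against 15.002 and 10.6 RPKM) and Glyma.17G045800.1 (21.4 and 21.7 against 26.04 and 18.3) missed the threshold, with log2 fold changes of 0.86 ± 0.22 and -0.86 ± 0.23 and adjusted p of 0.0993 and 0.112. Both were called in the fit without SC100 CT replicate 1, which left a single seed coat library.

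Amino acid permeases and MtN21-type exporters gave 26 higher and 2 lower of 128 tested (median 1.12; left out in turn, 46, 56, 19 and 23 higher and 21, 37, 1 and 2 lower). The 3 most abundant members, Glyma.19G227900.1, Glyma.19G227000.1 and Glyma.03G229700.1, overlapped between the tissues in RPKM, and none was called (adjusted p = 0.107, 0.112 and 0.154). The first had 15.2 and 11.9 RPKM in SC100 CT against 15.05 and 11.7 in C100 CT, the second 15.3 and 11.4 RPKM in SC100 CT against 14.8 and 11.6 in C100 CT and the third 10.2 and 11.2 RPKM in SC100 CT against 11.7 and 8.95 in C100 CT. All 3 were called lower in the fit without SC100 CT replicate 1, which left a single seed coat library. The RPKMs of the first pair lay within 5% of each other in each of the 4 libraries, and shared reads between them were not tested. Glyma.13G081000.1, of the same family, had 13.6 and 17.7 RPKM in SC100 CT against 0 and 0.0405 in C100 CT, a ratio of 921-fold (95% interval 165 to 36451).

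Aquaporins, the water channels, showed 7 lower and 5 higher of 56 tested (left out in turn, 23, 25, 8 and 10 lower and 12, 16, 4 and 6 higher); their median was -0.72 with TMM and 0.17 with library totals, so its sign depended on the scaling. Glyma.09G160500.1 had 3.92 and 4.05 RPKM in SC100 CT against 137 and 99.3 in C100 CT (log2 fold change -5.71 ± 0.29, adjusted p = 0.00404), and Glyma.16G210000.1 3.56 and 4.32 RPKM in SC100 CT against 123 and 89.2 in C100 CT (log2 fold change -5.56 ± 0.32, adjusted p = 0.00404). Their counts in C100 CT were close (3701 and 1899 against 3602 and 1847), and shared reads between them were not tested. The plasma membrane intrinsic protein Glyma.14G061500.1 had 46.6 and 50.5 RPKM in SC100 CT against 40.9 and 33.1 in C100 CT and was not called (adjusted p = 0.391). The call of Glyma.10G174400.1, described above, was lost with DESeq2 (adjusted p = 0.0575).

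The protease list held subtilisin-like, serine carboxypeptidase-like and papain-type models, and vacuolar processing enzymes too. Of 99 tested, 25 were higher and 4 lower (median 1.87, or 1.33 with the 21 models at 0 in a tissue set to their bound). Left out in turn, 42, 50, 18 and 25 were higher and 23, 32, 3 and 5 lower. Serine carboxypeptidase-like 20 (Glyma.09G249500.1) had 69.2 and 49.9 RPKM in SC100 CT against 0.262 and 0.309 in C100 CT (log2 fold change 6.85 ± 0.36, adjusted p = 0.00404), and serine carboxypeptidase-like 45 (Glyma.03G125400.1) 39.5 and 20.5 RPKM in SC100 CT against 0.332 and 0.289 in C100 CT (log2 fold change 5.72 ± 0.40, adjusted p = 0.0043). The vacuolar processing enzymes Glyma.05G055700.1 and Glyma.17G137800.1, which cleave the precursors of storage proteins, were lower. The first had 6.04 and 4.83 RPKM in SC100 CT against 20.98 and 15.2 in C100 CT (log2 fold change -2.56 ± 0.23, adjusted p = 0.00637), and the second 4.88 and 3.13 RPKM in SC100 CT against 20.1 and 15.1 in C100 CT (log2 fold change -2.97 ± 0.27, adjusted p = 0.0063).

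MADS-box factors had the highest median of the 29 lists. Of 41 tested, 14 were higher in the seed coat and 0 lower, with a median log2 fold change of 6.21, or 2.87 with the 17 models at 0 in a tissue set to their bound. Another 142 of the 183 models in the files were not tested. Among the 41, 28 and 19 were at 0 in C100 CT replicates 1 and 2, against 4 and 2 in SC100 CT. Models can pass the filter on summed counts through the seed coat alone, so the median and its rank were in part set by that filter. Over the fits with 1 library fewer, 27, 26, 13 and 17 were higher and 2, 4, 0 and 0 lower. In Arabidopsis, genes of this family specify ovule and seed coat identity. Glyma.06G324400.1 had 28.7 and 20.9 RPKM in SC100 CT against 0 and 0.101 in C100 CT, a ratio of 603-fold (95% interval 206 to 2930.4). Glyma.04G257100.1, Glyma.18G004700.1 and Glyma.08G310100.1 had 26.2 and 20.5, 25.9 and 18.03 and 19.8 and 19.7 RPKM in the seed coat. In the cotyledon each of the 4 was at 0 in replicate 1 and at 2 or 3 counts in replicate 2, and the ratios of the last 3 were 709-fold (95% interval 196 to 5863), 264-fold (95% interval 72.5 to 2194) and 265-fold (95% interval 90.2 to 1292). Summed over the list, the level was 220.0 and 215 RPKM in the seed coat against 7.01 and 7.42 in the cotyledon.

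NAC factors gave 11 higher and 1 lower of 83 tested (median 1.68; left out in turn, 32, 35, 9 and 11 higher and 4, 14, 0 and 0 lower), but none of the 4 most abundant, Glyma.04G226700.1, Glyma.06G138100.1, Glyma.02G222300.1 and Glyma.06G114000.1, was called, and their log2 fold changes were 0.41 ± 0.23, -0.01 ± 0.23, -0.35 ± 0.22 and -0.35 ± 0.23. The last of these was called in the fit without SC100 CT replicate 1, which left a single seed coat library. With the 14 NAC models at 0 in a tissue set to their bound, the median of the list was 1.21. Aux/IAA and auxin response factors gave 7 higher and 5 lower of 96 (median 0.07; left out in turn, 31, 32, 5 and 6 higher and 23, 37, 0 and 2 lower). The Aux/IAA repressor Glyma.13G361200.1 had 13.3 and 21.8 RPKM in SC100 CT against 0 and 0.0448 in C100 CT, a ratio of 927-fold (95% interval 166 to 36675), and Glyma.02G142600.1 had 11.2 and 15.5 RPKM in SC100 CT against 0.962 and 0.435 in C100 CT (log2 fold change 3.44 ± 0.42, adjusted p = 0.0131). Glyma.06G164900.1 and Glyma.04G200600.1, both annotated as auxin response factor 2, were not called on 4 libraries (adjusted p = 0.143 and 0.201). Both were called in the fit without SC100 CT replicate 1, which left a single seed coat library.

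Genes of gibberellin metabolism, perception and response were divided, with 14 higher and 7 lower of 40 tested (left out in turn, 21, 23, 12 and 15 higher and 14, 15, 7 and 8 lower). The small secreted gibberellin-regulated peptides went both ways. Glyma.04G024400.1, annotated as a GAST1 homolog, had 81.2 and 46.3 RPKM in SC100 CT against 0 and 0.367 in C100 CT (log2 fold change 7.72 ± 0.88, adjusted p = 0.0108), and Glyma.13G039300.1 had 74.8 and 49.05 RPKM in SC100 CT against 0.63001 and 0.297 in C100 CT (log2 fold change 6.14 ± 0.39, adjusted p = 0.00405). Glyma.17G237100.1 went the other way, with 18.3 and 16.7 RPKM in SC100 CT against 58.6 and 39.97 in C100 CT (log2 fold change -2.31 ± 0.23, adjusted p = 0.00815), as did Glyma.08G291900.1, with 0 and 2.64 RPKM in SC100 CT against 68.1 and 56.6 in C100 CT (log2 fold change -6.41 ± 1.10, adjusted p = 0.0313; 0.0633 with DESeq2).

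Of the models of cytosolic and organellar ribosomal proteins, the structural proteins of the ribosome, 27.1% were called lower in the seed coat. The list was not split by compartment, and reads from organelle transcripts cannot be told apart from those of nuclear copies. Of 712 models tested, 193 were lower and 0 higher, with a median log2 fold change of -1.76, and on library totals the median was -0.96 with 87 lower and 5 higher. In the fits with a library left out, 450, 582, 81 and 172 were lower and 7, 25, 0 and 0 higher. SC100 CT replicate 1 had 185 of the 712 models at 0, against 12 in replicate 2. Among the called members, 14 had another called member within 5% of their count in every library, and reads shared between paralogs cannot be told apart. Glyma.19G120800.1 (ribosomal protein L2) had 17.8 and 29.3 RPKM in SC100 CT against 60.5 and 43.9 in C100 CT (log2 fold change -1.95 ± 0.36, adjusted p = 0.0387); without C100 CT replicate 1 its adjusted p was 0.0867, and on library totals 0.0907. The 3 most abundant members, Glyma.04G079800.1, Glyma.12G232300.1 and Glyma.14G213500.1, were not called (log2 fold changes 0.09 ± 0.42, -0.47 ± 0.37 and -0.40 ± 0.40). The first of them was called in the fit without SC100 CT replicate 1, which left a single seed coat library.

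The direction of the photosystem list turned with the scaling: 16 were lower and 1 higher of 153 with TMM (median -0.80), and 2 lower and 9 higher with library totals (median 0.05). Left out in turn, 71, 87, 2 and 8 were lower and 11, 22, 1 and 1 higher. Its most abundant members are annotated as photosystem II reaction center proteins, for which plants carry the gene in the plastid genome. Glyma.11G162200.1 (protein A) had 954 and 1124 RPKM in SC100 CT against 443 and 332 in C100 CT. Glyma.05G074900.1 (protein C) had 859.8 and 636 RPKM in SC100 CT against 737 and 668 in C100 CT. Neither was called (adjusted p = 0.307 and 0.185). In the fit without SC100 CT replicate 1, which left a single seed coat library, both were, in opposite directions. Reads of a plastid transcript cannot be told apart from those of a nuclear copy of the same sequence.

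The shares called in the lists of cell cycle, heat shock and phloem models lay near or below those of all primary models (4.01% higher, 3.04% lower). Cyclins, replication proteins and histones gave 1 lower and 0 higher of 176 (median -0.54 with TMM and 0.31 with library totals; left out in turn, 37, 72, 0 and 1 lower and 4, 26, 0 and 1 higher). The most abundant histone, Glyma.11G241700.1, had 43.4 and 35.9 RPKM in SC100 CT against 19.8 and 14.4 in C100 CT (adjusted p = 0.404). Heat shock proteins and chaperones gave 5 lower and 0 higher of 110 (median -0.66 with TMM and 0.16 with totals; left out in turn, 32, 59, 3 and 5 lower and 6, 20, 0 and 0 higher). The HSP70 model Glyma.12G064000.1 had 25.2 and 23.8 RPKM in SC100 CT against 7.93 and 4.58 in C100 CT. It missed the threshold (adjusted p = 0.0603). Phloem protein models, listed as markers of vascular tissue, had 14 tested and none called in either direction (median 0.03). Over the fits with 1 library fewer, 2, 4, 0 and 0 were higher and 0, 6, 0 and 0 lower. The most abundant, Glyma.10G169600.1, had 7.702 and 11.5 RPKM in SC100 CT against 11.2 and 7.95 in C100 CT (adjusted p = 0.252).

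Few of the models with the highest RPKM were called. The 10 most abundant annotated models of the seed coat and of the cotyledon had 8 in common, and none of the seed coat's 10 was called. They included Glyma.13G116700.1 and Glyma.17G043200.1, both annotated as aspartic proteinase A1, whose RPKMs lay within 5% of each other in every library. The first had 27179.9 and 19247 RPKM in SC100 CT against 10335 and 7931 in C100 CT. Models annotated as V-ATPase related and as lipase or lipoxygenase of the PLAT/LH2 family made up 6 of the 8. The V-ATPase related models were only 168 to 249 bases long and had similar counts. In SC100 CT replicate 1 Glyma.08G017100.1 had 45413 counts and Glyma.06G203600.1 had 45354. Shared reads between these models were not tested, and they are not to be read as separate genes of high level. The exception in the cotyledon was Glyma.16G174500.1, annotated as receptor like protein 2, with 7377 and 8138 RPKM in SC100 CT against 35584 and 31401 in C100 CT (log2 fold change -2.94 ± 0.48, adjusted p = 0.0273). That call was lost on library totals (adjusted p = 0.0792) and without C100 CT replicate 1 (0.0663).

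Ribosome footprints of the same stage, from 2 SC100 FP libraries and 1 C100 FP library, gave a second readout. No test was made, because C100 FP replicate 2, which the labels list, was not analysed here. All 1244 primary models called higher had more RPKM in both SC100 FP libraries than in the C100 FP library, where 56.8% of all primary models tested did. Of the 945 called lower, 738 (78.1%) had less RPKM in both SC100 FP libraries, where 15.5% of all primary models tested did. All 14 storage globulin and lectin models, all 19 protease inhibitors and all 12 oil body models called lower were among these, and of the 193 ribosomal protein models called lower 104 were. Glyma.20G148300.1 had 37.5 and 16.5 RPKM in SC100 FP against 1909 in C100 FP, and lipid transfer protein 1 (Glyma.01G132500.1) had 521 and 204 against 0.267. The receptor like protein 2 model Glyma.16G174500.1 had 10322 and 8099 against 4319, the reverse of its control RNA. The ribosomal protein L2 model Glyma.19G120800.1, called lower, was also reversed in footprints, with 4.75 and 5.07 against 1.18. FP and CT libraries were made from aliquots of one powdered sample, so the footprints are not an independent set of seeds.

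**Figure D5:**
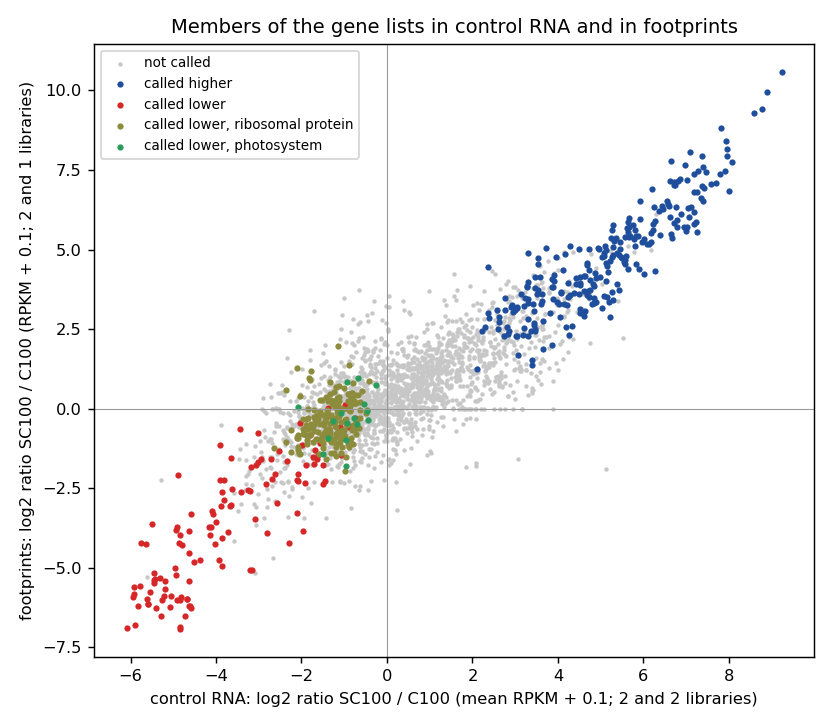
Log2 ratio of SC100 to C100 in footprints (vertical axis, 2 and 1 libraries) against that in control RNA (horizontal axis, 2 and 2 libraries), both from mean RPKM + 0.1, for the members of the 29 gene lists, 1 point per model coloured by its call in control RNA. All members called higher lie above 0 on both axes, while ribosomal protein and photosystem models called lower lie on both sides of 0 in footprints.

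The seed coat was also set against the cotyledon at the early stage, in seeds of 25 to 50 mg (2 SC25 CT and 2 C25 CT libraries). Of the 1244 models called higher at mid stage, 1143 (91.9%) had both SC25 CT libraries above both C25 CT libraries, against 23.1% of the primary models tested. Of the 945 called lower, 840 (88.9%) had both below, against 31.1%. The SC25 CT replicates differed in cotyledon transcripts. The 14 storage globulin and lectin models had a median of 12.6% (up to 58.9%) of the mean C25 CT level in SC25 CT replicate 1 and of 0.836% in replicate 2, and sums of 362 and 17.4 RPKM. With SC25 CT replicate 2 alone, 1227 of the 1244 (98.6%, against 47.5% of the primary models tested) were above both C25 CT libraries and 860 of the 945 (91%, against 37.5%) below both. The difference between the stages was tested as an interaction over 67278 models with 10 or more counts in the 8 libraries. There were 20 models (0.0297%) shifted towards the seed coat at mid stage and 46 (0.0684%) towards the cotyledon, of which the primary ones were 0.029% and 0.0844% of the primary models tested, and 4057 models had an unadjusted p under 0.05. These counts rested on single libraries. No model was called in either direction without SC100 CT replicate 1 (3636 at an unadjusted p under 0.05). Without C100 CT replicate 1 there were 0 and 3, without C100 CT replicate 2 there were 16 and 30, without SC25 CT replicate 2 there were 68 and 462, without SC100 CT replicate 2 there were 42 and 718, without SC25 CT replicate 1 there were 46 and 294, without C25 CT replicate 1 there were 9 and 33, and without C25 CT replicate 2 there were 8 and 19. DESeq2 called 58 and 254.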

How the data were processed

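The authors deposited counts, the number of reads aligned to each of 88515 soybean gene models (Wm82.a2) in each library, after alignment with Bowtie 1 (as the submitters' processing notes name it) without mismatches; a read that matched several models was counted at each. No normalization had been applied to the deposited counts. Strand-specific counting is not given in the sources used here, so overlapping and antisense models cannot be separated. RPKMs were computed here from count, cDNA length and library total, and are set beside the tests as levels. SC100 CT was compared with C100 CT (2 libraries each) with edgeR's quasi-likelihood test on the counts of the 4 libraries, with TMM and without covariates, over models with 10 or more summed counts. P-values were adjusted by Benjamini-Hochberg over all 56976 models. The value after each ± was the size of the log2 fold change divided by the square root of the test's F statistic. It approximates a standard error and was not estimated by the fit. The difference between stages was an interaction over 8 CT libraries. Named models were the 12 with the largest log2 fold change in each direction (adjusted p under 0.05, no overlap of RPKMs, 10 RPKM or more in the higher tissue, annotated), the 10 most abundant annotated in each tissue, the 4 most abundant in each of 29 lists, and up to 6 in each direction for the interaction. Lists were matched on annotation text, with false matches removed on that text before the fits. The comparison, the members and the lists were chosen with earlier results of these data known. For a model at 0 in a tissue, 3 counts per library stood in as a floor; for 1 to 3 counts, an exact binomial 95% interval of the ratio is given. Intervals and floors cover counting error only. Alternatives were DESeq2, library totals, other filters, primary models only, the replicate number as a block, each library left out, RPKM on totals without the 1% most abundant models, and, chosen after seeing the data, totals without models over 5000 RPKM. On simulated counts the test of the tissues recovered 11.94%, 91.04% and 100% of models changed by log2 folds of 1, 2 and 4. It called 5 of 55155 unchanged models. The simulation used a fixed dispersion for all models and changed only models with high summed counts. It did not hold the spread between these replicates, so its rates are not those of this comparison. Sequences and genome positions were not used here. Tools were Python 3.11.15, numpy 2.4.6, pandas 2.3.3, scipy 1.17.1, matplotlib 3.10.9, R 4.3.3, edgeR 4.0.16 and DESeq2 1.42.0.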

Additional observations from a re-analysis of the deposited data

Results flagged for a closer look

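The difference between seed coat and cotyledon itself differed between the early and the mid stage in 11 named models (edgeR's quasi-likelihood interaction test, Benjamini-Hochberg adjusted over 67278 models). Each value is the mid-stage minus the early-stage log2 fold change ± an approximate SE worked back from the test's F statistic. The metal transporters Glyma.17G165200.1 and Glyma.05G101700.1 are annotated as natural resistance-associated macrophage protein 3. They had less RPKM in the seed coat than in the cotyledon at the early stage and more at mid stage. At mid stage alone, the test of the tissues called neither (adjusted p = 0.256 and 0.395). Glyma.17G165200.1 had 1.25 and 1.39 RPKM in SC100 CT and 0.354 and 0.2504 in C100 CT, against 2.04 and 1.03 in SC25 CT and 55.7 and 56.9 in C25 CT (difference 6.17 ± 0.72, adjusted p = 0.00419), and Glyma.05G101700.1 had 1.68 and 0.918 RPKM in SC100 CT and 0.401 and 0.267 in C100 CT, against 1.85 and 1.46 in SC25 CT and 32.04 and 33.98 in C25 CT (difference 5.22 ± 0.66, adjusted p = 0.00759). The copper chaperone Glyma.02G160500.1 showed the same order, with 8.79 and 10.7 RPKM in SC100 CT and 1.18 and 0.761 in C100 CT, against 9.295 and 10.1 in SC25 CT and 47.2 and 66.5 in C25 CT (difference 4.87 ± 0.56, adjusted p = 0.00419). In all 3 the seed coat level stayed within a narrow range and the cotyledon level was high at the early stage only. The zinc finger protein-related Glyma.07G093700.1 had 1.73 and 1.13 RPKM in SC100 CT and 0.60001 and 0.498 in C100 CT, against 1.93 and 2.01 in SC25 CT and 13.7 and 15.6 in C25 CT (difference 3.28 ± 0.54, adjusted p = 0.0348). This model too was not called by the test of the tissues at mid stage (adjusted p = 0.426). Gibberellin 20-oxidase 2 (Glyma.07G081700.1), an enzyme of gibberellin synthesis, was lower in the seed coat at both stages, and less so at mid stage, with 1.13 and 0.489 RPKM in SC100 CT and 9.02 and 7.502 in C100 CT, against 0.0167 and 0.0597 in SC25 CT and 14.7 and 19.3 in C25 CT (difference 4.63 ± 0.78, adjusted p = 0.0349).

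The other 6 shifted towards the cotyledon. Glyma.12G213600.1, of the storage and lipid transfer family, had 1.89 and 3.001 RPKM in SC100 CT and 242 and 183 in C100 CT, against 11.1 and 0.586 in SC25 CT and 4.13 and 5.32 in C25 CT (difference -8.09 ± 1.25, adjusted p = 0.0268). Glyma.13G170900.1, a conserved hypothetical protein, had 1.45 and 0.933 RPKM in SC100 CT and 42.9 and 33.5 in C100 CT, against 3.02 and 0.1301 in SC25 CT and 0.745 and 0.338 in C25 CT (difference -7.83 ± 1.21, adjusted p = 0.0268). The GRAM domain, ABA-responsive type Glyma.09G164100.1 had 0.281 and 9.38 RPKM in SC100 CT and 138 and 131 in C100 CT, against 7.46 and 7.19 in SC25 CT and 3.82 and 0.954 in C25 CT (difference -7.32 ± 1.29, adjusted p = 0.0489), with SC100 CT replicates far apart. This model was not called by the test of the tissues at mid stage (adjusted p = 0.0663). The small GTP-binding protein Glyma.04G168600.1 had 18.6 and 25.7 RPKM in SC100 CT and 433 and 385 in C100 CT, against 54.8 and 18.6 in SC25 CT and 13.3 and 7.46 in C25 CT (difference -7.16 ± 0.90, adjusted p = 0.00759). The aspartyl protease Glyma.03G239700.1 had 1.34 and 1.52 RPKM in SC100 CT and 38.8 and 25.5 in C100 CT, against 0.933 and 0.0971 in SC25 CT and 0.278 and 0.588 in C25 CT (difference -6.13 ± 1.00, adjusted p = 0.0348). The amidotransferase C subunit model Glyma.10G214200.1 had 50.9 and 51.9 RPKM in SC100 CT and 27.9 and 19.4 in C100 CT. At the early stage it had 92.3 and 120.0 in SC25 CT and 2.02 and 2.88 in C25 CT (difference -5.26 ± 0.50, adjusted p = 0.00199). Its RPKM was higher in the seed coat at both stages and by less at mid stage, where the test of the tissues did not call it (adjusted p = 0.529). Without SC25 CT replicate 1 the difference was -4.02 for Glyma.12G213600.1 (adjusted p = 0.0779), -3.50 for Glyma.13G170900.1 (0.735) and -2.96 for Glyma.03G239700.1 (0.338). That of Glyma.09G164100.1 was -11.40 without SC100 CT replicate 2 (adjusted p = 0.0292). No adjusted p of these 11 stayed under 0.05 without SC100 CT replicate 1, and over all alternatives run the largest adjusted p of each ran from 0.125 for Glyma.10G214200.1 to 0.735 for Glyma.13G170900.1.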

How the results depend on the processing

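The counts of calls between tissues (2004 higher, 1511 lower) moved by more than 1.5 times without a filter on counts (3839 and 3862) and with scaling by library totals for those higher (6189), or by totals without models over 5000 RPKM (4900), a setting chosen after seeing the data. With libraries left out they ran from 1092 to 12637 higher and from 733 to 24528 lower. DESeq2 gave 2345 and 2005, 10 or more counts in every library 1539 and 1732 of 19328 tested, and primary models alone 1342 and 1032. Same-numbered libraries did not deviate together (correlation 0.00403 over 56976 models, 2 pairs that share only a number); with the replicate number as a block there were 2937 higher and 3525 lower, and 54 and 199 for the interaction between tissue and stage. That interaction (20 and 46) gave 58 and 254 with DESeq2, 13 and 32 with 10 or more counts in every library, 75 and 509 without a filter, 7 and 32 on primary models and 44 and 17 on library totals; libraries left out gave 0 to 68 and 0 to 718. The median log2 ratio of RPKMs of primary models was 0.51 on library totals and -0.132 on totals without the 1% most abundant models. The causes of these movements were not tested. Of the 98 named models called, 89 stayed under 0.05 in every alternative run on them. Each tissue had 2 libraries, and SC100 CT replicate 1 had 46802 models at 0. On simulated counts with a fixed dispersion, a log2 fold change of 1 was recovered in 11.94% of cases. That simulation lacked the spread between these replicates, so it gives no detection limit here. The smallest log2 fold changes called among primary models were 1.17 and -1.08, and smaller differences went uncalled.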

Other observations

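Of the 43 primary models whose tissue difference shifted between stages, 10 were annotated as lipoxygenase 1 and shifted towards the cotyledon at mid stage, out of 29 tested models with that annotation (0.0844% of all primary models tested shifted this way). No model was called in this test without SC100 CT replicate 1. Members of a family of near-identical sequences share reads and are not independent. They were noticed after the calls were seen, and no test was made of them as a group.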
